A study of Mus musculus with 12 samples.

Results

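The comparison described here is erinacine S against its solvent DMSO after 48 h in primary cortical neurons. Erinacine S is a natural product of the fungus Hericium erinaceus, known as lion's mane. The cells were dissociated from the cortex of C57BL/6J mouse embryos at day 17.5 of gestation with the meninges removed, and carry no transgene or deletion. They received 1 µg/mL erinacine S or DMSO a few hours after plating, in maintenance medium, and were harvested 48 h later. The comparison uses 6 of the 12 libraries of the series, 3 with DMSO and 3 with erinacine S, and the other 6 libraries are the same groups at 16 h. All genes with a mean of at least 1 TPM (a level corrected for transcript length and for the total of its library) over the 6 libraries were taken, which gave 15349 of the 51912 genes in the table. The libraries of a group are described as independent repeats with no word on litters, dishes or days. The p-values reflect only how far libraries scatter within their groups, and that scatter may be technical. The scatter was estimated over all 12 libraries, those of 16 h included.

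Cortical neurons placed in culture form synapses and begin to fire within days. Firing opens calcium channels and glutamate receptors, and calcium and the ERK kinases carry the signal to the nucleus, where the factors CREB and SRF switch on immediate early genes within minutes. Many of these genes encode transcription factors such as Fos, Npas4 and Nr4a1, which in turn act on a later set that includes secreted peptides and growth factors. Others encode phosphatases and inhibitors that end the kinase signal.

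Markers of the labelled cell type were high in all libraries, and 1 library stood apart. The 6 neuron markers (Tubb3, Map2, Rbfox3, Snap25, Syt1 and Stmn2) summed to 4890 to 5200 TPM in the 6 libraries, and endothelial markers summed to at most 0.823 TPM. Glia, dividing cells and a few microglia were also present. In erinacine S replicate 1 the levels of most non-neuronal markers were low: its radial glia markers summed to 240 TPM against 709 to 783 in the other 5 libraries, its astrocyte markers to 49.3 against 109 to 132, its oligodendrocyte lineage markers to 66.5 against 174 to 233 and its markers of dividing cells to 119 against 204 to 219. Its inhibitory neuron markers summed to 686 TPM against 474 to 563, with Lhx6, Gad1, Slc32a1 and Gad2 above the other 5 libraries, Dlx1 below them (111 against 128 to 158) and Dlx2 among them (79.4 against 78.7 to 94.9). Its excitatory cortical neuron markers summed to 1390 TPM against 1480 to 1610, and its red blood cell markers to 28.8 against 3.44 to 13.6. Across genes this library correlated with the other 2 erinacine S libraries at 0.98 and 0.979, while all other pairs within a group reached 0.993 to 0.995. Single genes far below the other 5 libraries were Ttr, a product of the choroid plexus, at 0.426 TPM against 39.8 to 65.5, and the radial glia gene Fabp7 at 72.6 against 374 to 494. Lyz2, at 3.41 against 27.5 to 53.9, and 1 entry of Rnf26 were also low. Far above them were Adora2a, a receptor of striatal neurons, at 59.1 against 11.3 to 19.3, and the opioid precursor Penk at 46.8 against 8.06 to 16. Crym, at 22 against 2.79 to 7.04, and Dgkg, at 10.9 against 2.03 to 3.8, were high as well. In bulk RNA, fewer cells of a type and less RNA per cell cannot be told apart. Results are therefore given with and without this library where it matters.

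**Figure D1:**
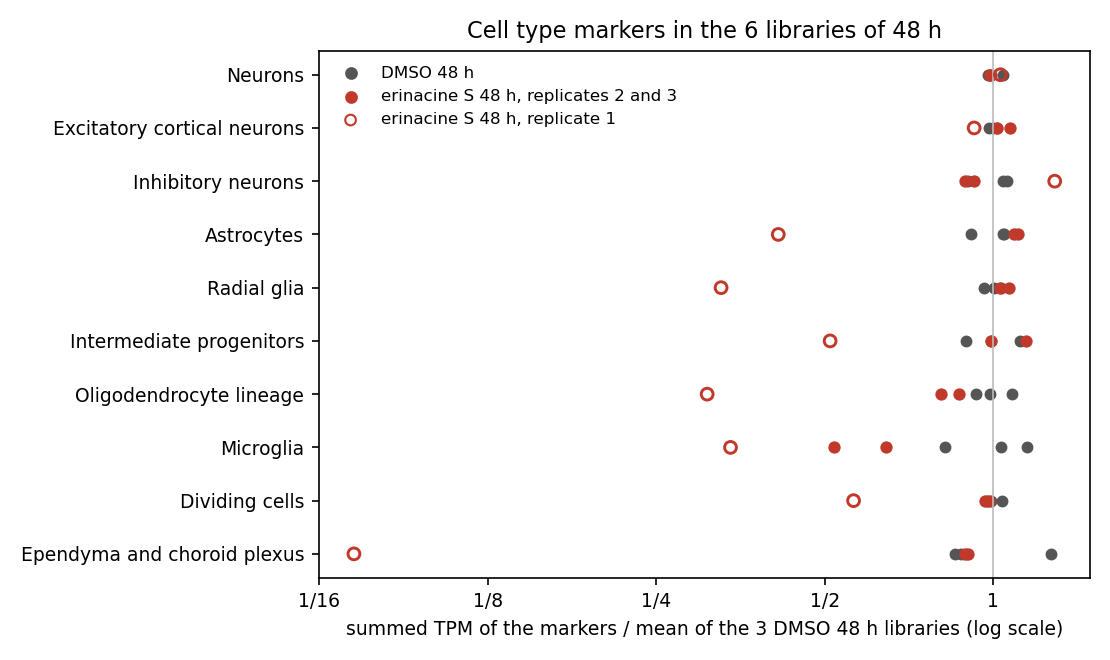
Summed TPM of cell type markers in each 48 h library, divided by the mean of the 3 DMSO libraries (log scale). Erinacine S replicate 1 (open circles) lies far below the other 5 libraries for radial glia, astrocytes, the oligodendrocyte lineage, dividing cells and choroid plexus, and close to them for neurons.

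A small set of genes was lower with erinacine S at 48 h, led by the immediate early genes. Of the 15349 genes tested, 21 (0.137%) passed limma's test at an adjusted p under 0.05, of which 18 (0.117%) were lower and 3 (0.0195%) higher with erinacine S. The 18 lower genes were Fos, Nr4a1, Npas4, Junb, Jun, Ier2, Egr1, Atf3, Arc, Dusp1, Dusp5, Crh, Vgf, Anxa3, Spp1, C1qc, Dtna and Peg13, and the 3 higher genes were Cxcr4, Ackr3 and Tmem150c. In all 21 the erinacine S libraries lay on the same side of all DMSO libraries, which the choice by a small p makes likely. Over all genes tested, such a lack of overlap was seen for 8.79% in the lower and 10.6% in the higher direction, and 1409 genes (9.18%) had an unadjusted p under 0.05 (4.95% higher, 4.23% lower). Without erinacine S replicate 1, all 21 genes passed again, among 116 (0.756%). Leaving out erinacine S replicate 2 or 3 gave 14 and 13 genes, and leaving out DMSO replicate 1, 2 or 3 gave 9, 10 and 9. The 9 genes that passed with each of the 6 libraries left out in turn were Fos, Nr4a1, Npas4, Junb, Jun, Arc, Crh, Anxa3 and Cxcr4. In a fit of only the 6 libraries of 48 h, 9 of the 21 passed, and Arc and Anxa3 did not.

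**Figure D2:**
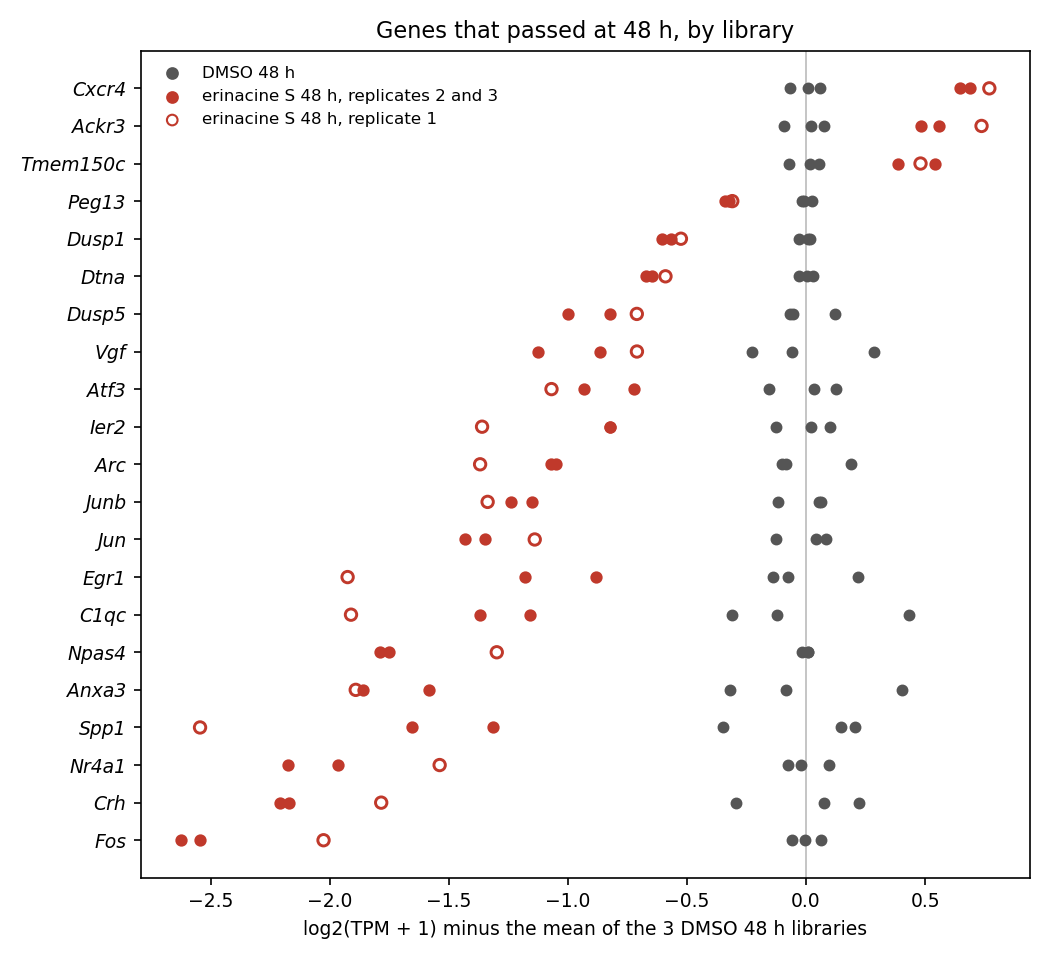
The 21 genes that passed, each library shown as the difference of its log2(TPM + 1) from the DMSO mean. Grey points are the DMSO libraries, filled red points erinacine S replicates 2 and 3, and open circles replicate 1. All erinacine S points lie beyond the DMSO points, by the most for Fos, Crh and Nr4a1.

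Among the transcription factors of the immediate early response, Fos had the largest change. Fos (ENSMUSG00000021250, chromosome 12, 85473890 to 85477273) pairs with Jun proteins to form AP-1. It stood at 32.2, 33.4 and 35.1 TPM in the DMSO libraries and at 7.48, 4.6 and 4.91 TPM in erinacine S replicates 1, 2 and 3. The groups were far apart, and replicate 1 was the highest of the erinacine S libraries. Fos fell by 2.40 ± 0.19 on the log2 scale (SE; adjusted p = 0.000541), and by 2.59 ± 0.18 without replicate 1. All fold changes are on the log2(TPM + 1) scale, which understates changes at low levels.

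The orphan nuclear receptor Nr4a1 (ENSMUSG00000023034, chromosome 15, 101266846 to 101274792) and the neuron-specific factor Npas4 (ENSMUSG00000045903, chromosome 19, 4984355 to 4989971) behaved in the same way. Nr4a1 was at 40, 43.4 and 38.4 TPM with DMSO and at 13.3, 8.2 and 9.64 TPM with erinacine S. It fell by 1.89 ± 0.17 (SE; adjusted p = 0.000629). Npas4, which responds to calcium entry rather than to growth factors, was at 37.9, 38.6 and 38.6 TPM with DMSO and at 15, 10.7 and 10.4 TPM with erinacine S. It fell by 1.61 ± 0.16 (adjusted p = 0.00129), and as with Fos and Nr4a1, replicate 1 kept the highest level of the treated libraries.

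The AP-1 partners of Fos fell as well. Jun was at 138, 119 and 134 TPM with DMSO and at 58.5, 47.6 and 50.5 with erinacine S, a fall of 1.31 ± 0.14 (SE; adjusted p = 0.00214). Junb went from 12.5, 12.6 and 11 TPM to 4.15, 4.86 and 4.51, a fall of 1.24 ± 0.13 (adjusted p = 0.00214). The gene Prdx2, at 541 TPM, overlaps Junb on the opposite strand, and the strand setting of the quantification is not given in the sources used here. Jund, the third member of the family, which is expressed without stimulation, did not pass. Its levels were 262, 205 and 257 TPM with DMSO and 165, 139 and 151 with erinacine S, without overlap (log2 fold change -0.66 ± 0.20, SE, adjusted p = 0.311).

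Of the other factors that passed, Egr1, a zinc finger factor that reports recent activity, was at 12.2, 15.9 and 12.8 TPM with DMSO and at 2.83, 6.89 and 5.41 with erinacine S. It fell by 1.33 ± 0.21 (SE; adjusted p = 0.0399). Ier2 fell by 1.00 ± 0.14 and Atf3, a factor of stress and injury responses whose level was only 0.552 to 0.971 TPM with erinacine S, fell by 0.91 ± 0.15. In these 3 genes replicate 1 was the lowest of the treated libraries, the reverse of its place in Fos. All 3 lost the call without any 1 of the DMSO libraries (adjusted p up to 0.17, 0.132 and 0.247), Egr1 and Atf3 also without erinacine S replicate 3, and Atf3 without replicate 2.

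Over the whole list of immediate early transcription factors and their cofactors, 27 of 29 were tested. Of these, 8 fell, none rose and 19 did not pass, against 0.117% of all genes that fell. A further 9 had non-overlapping lower values without passing, which makes 17 of 27 against 8.79% of all genes, and 24 of 27 log2 fold changes were negative. The list median was -0.66, against 0.01 for all genes, and the median over members in each treated library was -0.70, -0.78 and -0.72 for replicates 1, 2 and 3. Among the members that came close, Fosb was at 2.6, 3.23 and 3.81 TPM with DMSO and 1.47, 0.43 and 0.422 with erinacine S (log2 fold change -1.29, adjusted p = 0.0559), and Egr4 and Nr4a3 had -1.66 and -0.93 (adjusted p = 0.0571 and 0.0619). Fosl2 depended on replicate 1: it was at 24.6, 23.7 and 33.1 TPM with DMSO and at 25.7, 9.47 and 8.43 with erinacine S, so that its log2 fold change was -1.01 (adjusted p = 0.337) with this library and -1.48 (adjusted p = 0.0054) without it. Without replicate 1, 15 of the 27 passed as lower and the list median was -0.72.

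The stretches of DNA just before the start sites of these genes are shown because the members moved together and because the CRE half-site TGACG, the core of the sequence that CREB binds, recurs in them. The 250 bases before the RefSeq start site (build GRCm38.p6) were at hand for 10083 of the genes tested and for 10 of the 18 that fell. Windows were searched on both strands for TGACG, for the full CRE TGACGTCA, which contains it, for the AP-1 site TGANTCA, for the TATA box TATAAA and for the SRF-binding CArG box. In the sequences below, written 5′ to 3′ on the strand of the gene, capitals mark the CRE half-site on either strand (its reverse complement is CGTCA) and the full CRE.
Fos, chr12:85473640-85473889 (+ strand): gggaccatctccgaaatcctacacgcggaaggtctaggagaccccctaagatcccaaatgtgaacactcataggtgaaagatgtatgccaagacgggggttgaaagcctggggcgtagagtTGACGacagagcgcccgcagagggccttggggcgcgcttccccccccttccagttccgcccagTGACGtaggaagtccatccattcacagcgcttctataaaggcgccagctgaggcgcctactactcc
Nr4a1, chr15:101266596-101266845 (+ strand): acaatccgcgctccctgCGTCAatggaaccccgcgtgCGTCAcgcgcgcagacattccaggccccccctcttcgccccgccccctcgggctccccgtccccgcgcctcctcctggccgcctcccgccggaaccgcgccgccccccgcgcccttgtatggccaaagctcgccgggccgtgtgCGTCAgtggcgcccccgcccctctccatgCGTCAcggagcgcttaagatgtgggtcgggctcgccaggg
Npas4, chr19:4989972-4990221 (- strand): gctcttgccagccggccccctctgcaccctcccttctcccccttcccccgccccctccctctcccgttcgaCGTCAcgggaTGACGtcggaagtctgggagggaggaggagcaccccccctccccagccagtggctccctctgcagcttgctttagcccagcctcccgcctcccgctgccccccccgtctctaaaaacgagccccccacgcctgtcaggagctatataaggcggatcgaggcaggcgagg
Dusp1, chr17:26508473-26508722 (- strand): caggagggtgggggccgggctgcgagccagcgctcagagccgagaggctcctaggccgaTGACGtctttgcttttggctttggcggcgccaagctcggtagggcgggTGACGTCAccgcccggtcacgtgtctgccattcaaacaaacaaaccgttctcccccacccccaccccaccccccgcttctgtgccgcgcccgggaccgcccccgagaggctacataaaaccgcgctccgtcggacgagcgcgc
Cxcr4, chr1:128592300-128592549 (- strand): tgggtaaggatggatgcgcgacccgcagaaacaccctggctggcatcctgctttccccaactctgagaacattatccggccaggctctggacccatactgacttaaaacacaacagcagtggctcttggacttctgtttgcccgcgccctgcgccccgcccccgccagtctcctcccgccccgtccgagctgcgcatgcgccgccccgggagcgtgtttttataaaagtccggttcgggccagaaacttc
Fos had its half-sites 129 and 66 bases before the start and Nr4a1 had 4, the nearest 40 bases before it. Npas4 had 2, on opposite strands and a few bases apart. Dusp1, a phosphatase gene described further on, was the only one of the 10 with the full CRE, 143 bases before its start, and Cxcr4, the gene that rose with the smallest p, held none. The half-site was present in 7 of the 10 windows of genes that fell (Fos, Nr4a1, Npas4, Junb, Dusp1, Dusp5 and Atf3), in 16 of 22 windows of the immediate early transcription factor list (72.7%) and in 28% of the 10083 windows of all genes. The first 2 counts share genes such as Fos and Nr4a1. All genes that fell and are shown above hold the half-site, which was a reason for showing them. Windows of genes that fell but lack it, those of Jun and Spp1 among them, are not shown. The CArG box was found in 1 of the 10, Dusp5, and in 1.15% of all windows, and the AP-1 site in none of the 10 and in 3.56% of all windows. The TATA box was found in 2 of the 10, in 2 of the 3 windows of genes that rose and in 5.84% of all windows. The window of Atf3 belongs to a start site inside the gene, far from its 5′ end. These are matches of letters, not measured binding.

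Most genes that fell were short. From start to end they spanned a median of 4.94 kb, and 14 of 18 (77.8%) spanned less than 10 kb, against a median of 18.5 kb and 35.6% for all genes tested. Dtna, at 245 kb, was the longest of them.

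The effectors of the immediate early response, proteins that act on synapses and kinases rather than on DNA, had a median closer to 0. Arc, which acts at synapses in the removal of AMPA receptors, was at 3.89, 4.91 and 3.84 TPM with DMSO and at 1.01, 1.47 and 1.51 with erinacine S. It fell by 1.16 ± 0.14 (SE; adjusted p = 0.00372) with a clear gap between the groups, but did not pass in a fit of the 6 libraries of 48 h alone (adjusted p = 0.112). In the list as a whole, 3 of 20 fell (Arc, Dusp1 and Dusp5), against 0.117% of all genes, none rose and 17 did not pass. In this list 17 values were negative, 11 did not overlap in the lower direction, against 8.79% of all genes, and the median was -0.40 (-0.29 without replicate 1). Trib1, a pseudokinase, and the kinase Sik1 were lower in all treated libraries without passing (-0.67 and -0.42, adjusted p = 0.0652 and 0.141), and so was Per1 (-0.57, adjusted p = 0.146). Without replicate 1, Trib1, Per1 and Rgs2 passed as lower (adjusted p = 0.0205, 0.00571 and 0.0428), and Sik1 did not (adjusted p = 0.146). The scaffold gene Homer1, another known activity gene, had -0.10.

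Dual-specificity phosphatases switch off the MAP kinases ERK, JNK and p38. All 10 tested members had negative values, with a median of -0.52, and 7 had non-overlapping lower levels, against 8.79% of all genes. The nuclear phosphatase Dusp1 was at 49.5, 50.9 and 51.2 TPM with DMSO and at 34.8, 32.9 and 33.8 with erinacine S, a narrow spread in both groups, and fell by 0.57 ± 0.08 (SE; adjusted p = 0.0278). Dusp5, which acts on nuclear ERK, fell by 0.84 ± 0.13 from 4.57, 4.63 and 5.36 TPM to 2.57, 2.3 and 1.92 TPM. Both lost the call without any library but erinacine S replicate 1 (adjusted p up to 0.161 and 0.192). Dusp16 and Dusp10, which act mainly on JNK and p38, had -0.72 and -0.71 (adjusted p = 0.0652 for both). For the other members, Dusp4, Dusp6 and Dusp8 had -0.46 to -0.62, Dusp7 and Dusp14 had -0.13 and -0.29, and Dusp2 was at 3.03 to 5.27 TPM with DMSO and 3.06 to 4.44 with erinacine S (adjusted p = 0.958). Dusp6 was at 14.6 TPM in replicate 1 and at 27.8 and 22.7 in the other treated libraries, against 30.7 to 36 with DMSO, and its value was -0.37 without replicate 1. Sprouty genes, other inhibitors of the ERK pathway, showed the same place of replicate 1, with Spry2 at 22.5, 28.9 and 32.1 TPM against 37.9 to 41.7 (-0.53, adjusted p = 0.195).

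Among the relays that carry calcium to the nucleus no gene passed, against 0.137% of all genes. At that share most lists of this size would hold no call, so the count by itself says little. Of the 25 tested members of this list (CREB and its coactivators, calcium-dependent kinases, calcineurin, ERK, MEK and MEF2 factors), the values were 12 positive and 13 negative, and the median was -0.01. Creb1, the factor that binds the CRE, had 0.03. NMDA receptor subunits (5 tested) and AMPA and kainate receptor subunits (9 tested) also had no member that passed, with medians of 0.20 and 0.10 that became -0.11 and -0.01 without replicate 1.

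**Figure D3:**
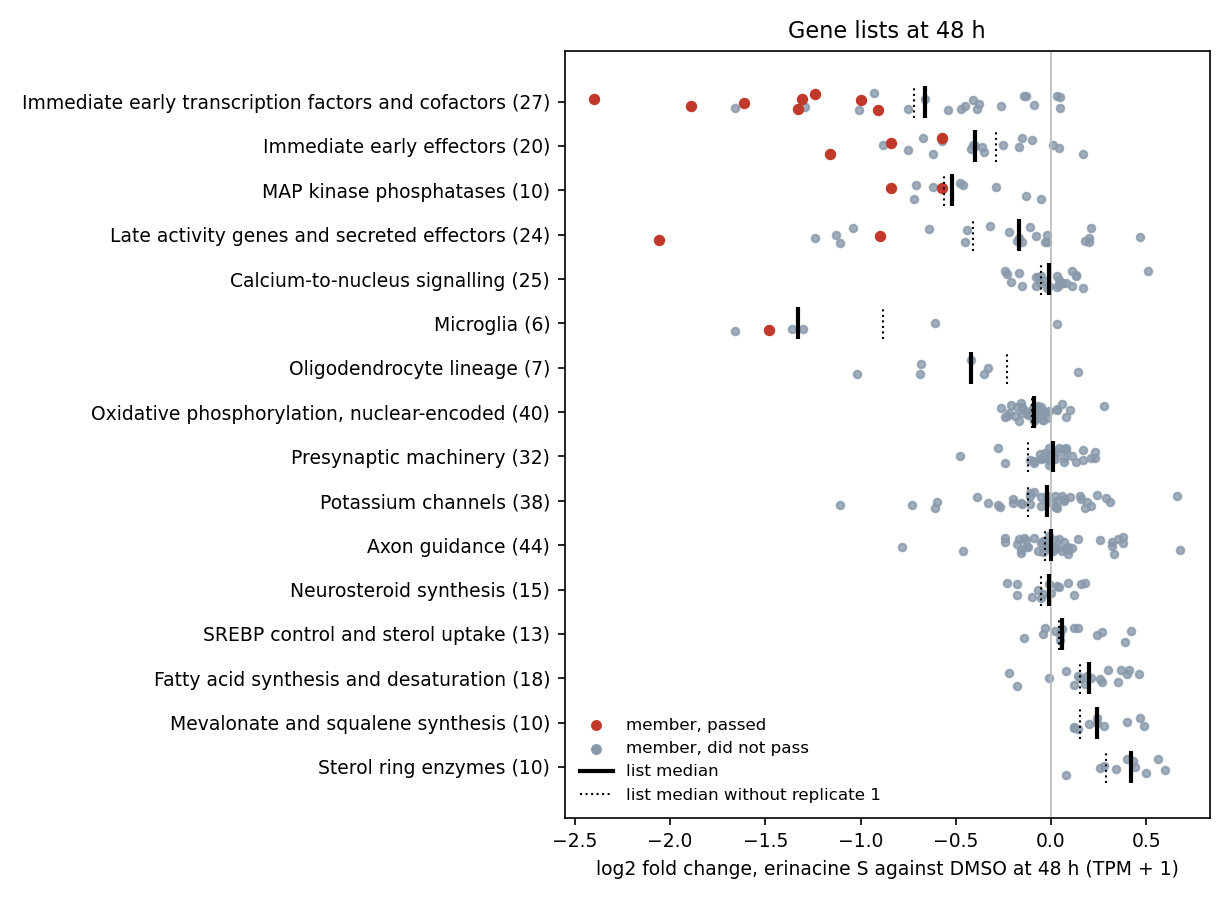
Log2 fold changes at 48 h of the members of 16 gene lists (number tested in parentheses). Red points passed, grey points did not, the black bar is the list median and the dotted bar the median without erinacine S replicate 1. The activity lists lie to the left, the calcium-to-nucleus list at 0 and the sterol lists to the right.

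Among the later activity genes, many of which encode secreted proteins, 2 of 24 fell, against 0.117% of all genes, none rose and 22 did not pass. Crh (ENSMUSG00000049796, chromosome 3, 19693401 to 19695396) encodes corticotropin-releasing hormone, made by some cortical interneurons. It was at 2.95, 4.11 and 4.65 TPM with DMSO and at 0.408, 0.0478 and 0.0757 TPM with erinacine S. The treated levels were close to 0 in replicates 2 and 3, and Crh fell by 2.06 ± 0.22 (SE; adjusted p = 0.00182). At these low levels its value depended on the pseudocount, with -4.06 (adjusted p = 0.0629) for 0.1 and -0.78 (adjusted p = 0.000941) for 5. Vgf, a precursor of secreted peptides, was at 53.8, 47.8 and 68.6 TPM with DMSO and at 33.9, 30.3 and 25.2 with erinacine S, a fall of 0.90 ± 0.14 (adjusted p = 0.0399). Its call was lost without DMSO replicate 1 or 3 or erinacine S replicate 2 or 3 (adjusted p up to 0.169).

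Several other members of this list passed without replicate 1 and not with it. In this library their levels lay between those of the DMSO libraries and those of replicates 2 and 3. The granin Scg2 was at 91.1, 91.3 and 104 TPM with DMSO and at 58.9, 33.2 and 31.8 with erinacine S (-1.24, adjusted p = 0.195, and -1.52, adjusted p = 0.0463 without replicate 1). Bdnf, the neurotrophin induced by activity, was at 3.96, 4.34 and 5.86 TPM and at 2.54, 1.44 and 1.43 TPM (-1.04, adjusted p = 0.102, and -1.22, adjusted p = 0.0183 without it). Adcyap1, which encodes the neuropeptide PACAP, and Rgs4, an inhibitor of G protein signalling, had -1.13 and -1.11 (adjusted p = 0.0751 and 0.206), and passed at -1.38 and -1.46 without it. The list median was -0.17 with replicate 1 and -0.41 without. Igf1, of the neurotrophin and growth factor list, had -0.82 (adjusted p = 0.108) and -0.97 (adjusted p = 0.0164). Beside these values, 4 of the 6 inhibitory neuron markers were highest in replicate 1, with Dlx1 lowest and Dlx2 within the range of the others, and their part in the results was not tested.

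The 3 genes that rose include both receptors of the chemokine Cxcl12, which steers migrating neurons and progenitors in the cortex. Cxcr4 (ENSMUSG00000045382, chromosome 1, 128588199 to 128592293), the signalling receptor, was at 17.2, 16.3 and 17.9 TPM with DMSO and at 29.9, 28.2 and 27.4 with erinacine S. It rose by 0.70 ± 0.08 (SE; adjusted p = 0.00214). Ackr3 (ENSMUSG00000044337, chromosome 1, 90203980 to 90216751), which binds Cxcl12 and takes it up, was at 12.7, 12.2 and 11.2 TPM with DMSO and at 20.7, 17.2 and 18.2 with erinacine S, and rose by 0.59 ± 0.10 (adjusted p = 0.0447). In both receptors all treated libraries, replicate 1 included, stood above all DMSO libraries. Cxcl12 itself was at 10.2, 9.56 and 10.3 TPM and at 8.7, 7.34 and 7.82, lower without overlap but far from passing (-0.30, adjusted p = 0.444). Tmem150c, which encodes a membrane protein described in the response of cells to mechanical force, was at 48.6, 53.2 and 51.8 TPM and at 71.8, 74.9 and 67.1, and rose by 0.47 ± 0.08 (adjusted p = 0.0399). Ackr3 and Tmem150c lost the call without any library but erinacine S replicate 1 (adjusted p up to 0.249 and 0.261).

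Just below the threshold, Sema4a, a semaphorin, had 29.2, 33.8 and 32.4 TPM with DMSO and 60.7, 49.5 and 45.3 with erinacine S (0.68, adjusted p = 0.0559). Lsm5, of the ring complexes that handle RNA splicing and decay, had 9.13, 11.8 and 11.7 TPM and 17.3, 25.2 and 32.1 TPM (1.09, adjusted p = 0.0604). Both passed without replicate 1. In the axon guidance list, none of 44 passed, against 0.137% of all genes, and the median was 0.00. Non-overlapping values were seen for 7 members (15.9%) in the higher direction, against 10.6% of all genes, among them Epha7 (0.38), Efna3 (0.26) and Efnb3 (0.38), and for 1 in the lower, against 8.79%, Sema7a (-0.46).

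The remaining genes that fell belong to no single pathway. The annexin Anxa3, a membrane-binding protein, was at 7.24, 8.68 and 12.6 TPM with DMSO and at 1.77, 1.83 and 2.43 with erinacine S. It fell by 1.78 ± 0.18 (SE; adjusted p = 0.0018), and did not pass in a fit of the 6 libraries of 48 h alone (adjusted p = 0.0542). Anxa7 of the same family was at 17.2 to 17.6 TPM with DMSO and 22.1 to 26.3 with erinacine S (0.44, adjusted p = 0.195). Dtna, which encodes the scaffold alpha-dystrobrevin, was at 34.6, 34 and 33.2 TPM and at 22.2, 20.9 and 21.3, and fell by 0.64 ± 0.11 (adjusted p = 0.0447). Peg13, an imprinted noncoding RNA gene inside the gene Trappc9, was at 290, 284 and 282 TPM and at 230, 225 and 228, the smallest change that passed (0.33 ± 0.05 lower, adjusted p = 0.0406). The calls of Dtna and Peg13 were lost without any library but erinacine S replicate 1 (adjusted p up to 0.261 and 0.263). Trappc9 lies on the same strand and had 42.5 TPM. The neighbour Kcnk9, an imprinted potassium channel, was at 24.3, 23.4 and 16.9 TPM and at 6.04, 13.8 and 9.43 (-1.11, adjusted p = 0.129).

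C1qc, a gene of microglia, the immune cells of the brain, and Spp1, which microglia also express, fell, and the summed microglia markers were lower in all treated libraries. The complement gene C1qc was at 5.2, 3.23 and 2.71 TPM with DMSO and at 0.223, 0.782 and 1.06 with erinacine S, a fall of 1.48 ± 0.24 (SE; adjusted p = 0.0399). C1qa and C1qb had -1.66 and -1.30 (adjusted p = 0.0559 and 0.0704), with C1qa listed at 0 in replicate 1. The secreted protein Spp1, or osteopontin, was at 7.5, 7.86 and 5.03 TPM and at 0.317, 1.44 and 2.09, and fell by 1.84 ± 0.28 (adjusted p = 0.0379). Summed over all 11 microglia markers, levels were 26.8 to 37.6 TPM with DMSO, 11.1 in replicate 1 and 17 and 21 in replicates 2 and 3, so that the treated libraries were lower also without the library that stood apart. Of these markers 6 could be tested, 5 had negative values, 1 fell (C1qc) and the median was -1.33 (-0.88 without replicate 1). P2ry12 and Tmem119, which define resting microglia, were at or close to 0 in both groups. C1qc lost its call without any library but replicate 1, and Spp1 without any DMSO library or replicate 2 (adjusted p up to 0.203 and 0.178). The share of the marker levels in the falls of C1qc and Spp1 was not tested.

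The other glial lists held no gene that passed, against 0.137% of all genes. The oligodendrocyte lineage list had a median of -0.42 (-0.23 without replicate 1) with 6 of 7 members lower without overlap, against 8.79% of all genes, and its markers summed to 174 and 187 TPM in replicates 2 and 3 against 201 to 233 with DMSO. Astrocyte and radial glia lists had medians of -0.28 each with replicate 1 and 0.09 each without. The transcription factor Klf9, which rises as neurons mature and answers to thyroid and glucocorticoid hormones, was at 45.9, 41.3 and 31.7 TPM with DMSO and at 5.94, 15.7 and 19.6 with erinacine S (-1.59, adjusted p = 0.126, and -1.12, adjusted p = 0.0412 without replicate 1). In the glucocorticoid and thyroid response list it belongs to, none of 18 passed, against 0.137% of all genes, and the median was -0.02. The clock factor Arntl had 30.1, 29.6 and 29.8 TPM and 18.7, 23.3 and 22.5 TPM (-0.46, adjusted p = 0.0652), in a clock list of 18 with a median of -0.11.

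Enzymes of cholesterol synthesis had small positive values throughout. The mevalonate branch builds squalene, and the sterol ring enzymes turn it into cholesterol. Of the 10 mevalonate and squalene enzymes, none passed, all 10 values were positive and the median was 0.24, while for the 10 sterol ring enzymes none passed, all 10 were positive and the median was 0.42. Medians were 0.15 and 0.29 without replicate 1, where Fdps, for example, was at 1000 TPM, higher than in any other 48 h library. The sterol desaturase Sc5d was at 83.7, 93.3 and 89.5 TPM with DMSO and at 136, 115 and 111 with erinacine S (0.44 ± 0.09, SE, adjusted p = 0.141), and Nsdhl at 93.1, 106 and 101 and at 177, 136 and 135 (0.56, adjusted p = 0.241). In the lists around this pathway, fatty acid synthesis and desaturation had 15 of 18 positive values and a median of 0.20, led by the desaturase Scd2 (0.40, adjusted p = 0.196) and the elongase Elovl2 (0.27, adjusted p = 0.196). SREBP control and sterol uptake had a median of 0.06 over 13 genes, with its reporter of low sterol, Insig1, at 0.39. None of the genes in these 2 lists passed.

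Neurosteroid synthesis, which the title of the series names, showed no gene that passed among the 15 of 28 that could be tested. Over all genes only 0.137% passed, so a list of this size would seldom hold a call. Values were 6 positive and 9 negative and lay between -0.23 (Tspo, which carries cholesterol into mitochondria) and 0.18 (Srd5a1, the steroid 5-alpha-reductase), with a median of -0.01. Star, which feeds cholesterol to steroid synthesis, had -0.05.

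No gene of the energy and synapse lists passed, against 0.137% of all genes. Of 40 nuclear genes of oxidative phosphorylation, 34 values were negative and 18 did not overlap in the lower direction, against 8.79% of all genes, at a median of only -0.09. Uqcrc1 of complex III, with the smallest p, was at 144, 139 and 149 TPM with DMSO and at 124, 116 and 120 with erinacine S (-0.26, adjusted p = 0.17). Presynaptic genes (32 tested), potassium channels (38), GABA receptors (16) and voltage-gated sodium and calcium channels (26) had no member that passed and medians of 0.01, -0.02, 0.00 and 0.08. Neurite growth genes (35) and integrated stress response genes (31) likewise had none, with medians of 0.04 and -0.06.

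Without erinacine S replicate 1, 109 genes (0.71%) were lower and 7 (0.0456%) higher. Of the 95 added, 91 were lower, and for these replicate 1 lay within the DMSO range in 18, above it in 22 and below it in 51. Besides the activity genes named above they included Wif1, a secreted Wnt inhibitor, at 11.5, 12.1 and 12.8 TPM with DMSO and at 10.5, 3.17 and 3.31 with erinacine S (-1.63, adjusted p = 0.00456 without replicate 1). Acan, the core protein of perineuronal nets, went from 3.3, 2.76 and 4.47 TPM to 2.06, 0.556 and 0.598 (-1.50). The imprinted gene Peg10 was at 38.9, 34.8 and 47.1 TPM and at 40.6, 17.9 and 18.3 (-1.10), so replicate 1 sat among the DMSO libraries. Ppp1r1b, typical of striatal neurons and encoding DARPP-32, was at 24.8 to 31.4 TPM with DMSO, 37.6 in replicate 1 and 12.2 and 15.8 in replicates 2 and 3 (-0.99). Gad1, the enzyme that makes GABA, was not among them (adjusted p = 0.092 without replicate 1), at 104 to 126 TPM with DMSO, 150 in replicate 1 and 74.4 and 75.3 in replicates 2 and 3. The part of inhibitory and striatal neuron content in these calls was not tested.

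**Figure D4:**
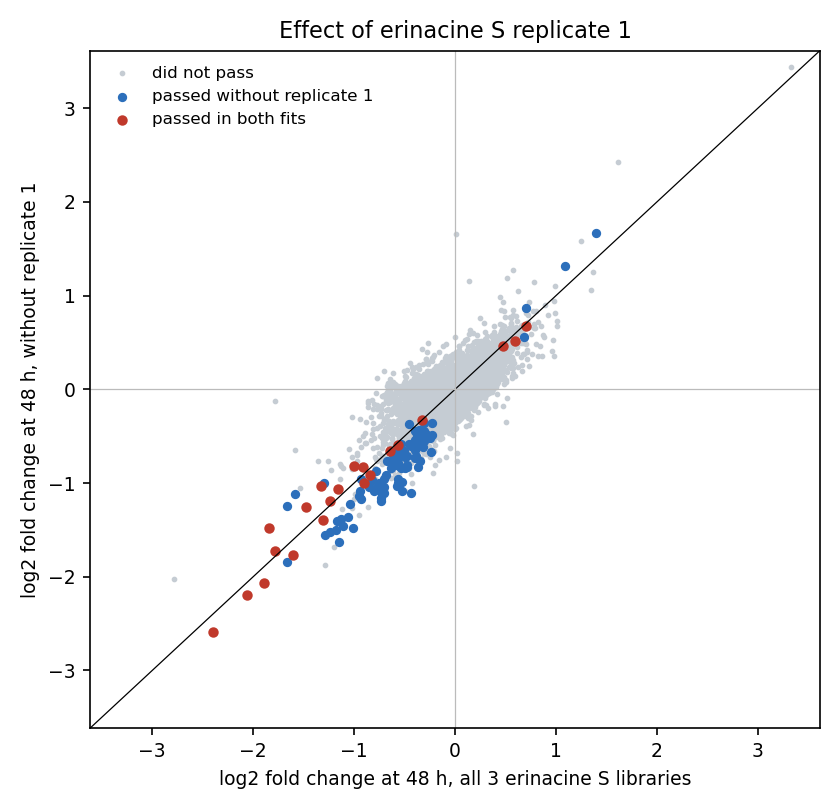
Log2 fold change of each tested gene at 48 h with all 3 erinacine S libraries (x axis) and without replicate 1 (y axis), with the line of equality. Red points passed in both fits (21) and blue points only without replicate 1 (95), most of which are lower with erinacine S.

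The 16 h libraries, which are not part of the 48 h fold changes, give a second view of these genes. They do enter the estimate of scatter on which the p-values at 48 h rest. No gene passed at 16 h, and 1.28% had an unadjusted p under 0.05. Of the 18 genes that fell at 48 h, 15 had negative values at 16 h, with a median of -0.32, and 11 had non-overlapping lower levels, against 1.58% of all genes at 16 h. These 11 were Fos, Nr4a1, Npas4, Arc, Jun, Egr1, Ier2, Dusp1, Vgf, Crh and Anxa3. Fos was at 17.9, 12 and 13.6 TPM with DMSO at 16 h and at 5.51, 6.62 and 9.16 with erinacine S, so the DMSO level was higher at 48 h than at 16 h and the treated level was low at both times. Cxcr4 had the opposite course: with DMSO it was at 25.7, 30.7 and 28.9 TPM at 16 h and at 16.3 to 17.9 at 48 h, and with erinacine S at 31.4 to 33.1 and then 27.4 to 29.9. Junb, Atf3, Spp1, C1qc, Dusp5, Dtna and Peg13 overlapped at 16 h.

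**Figure D5:**
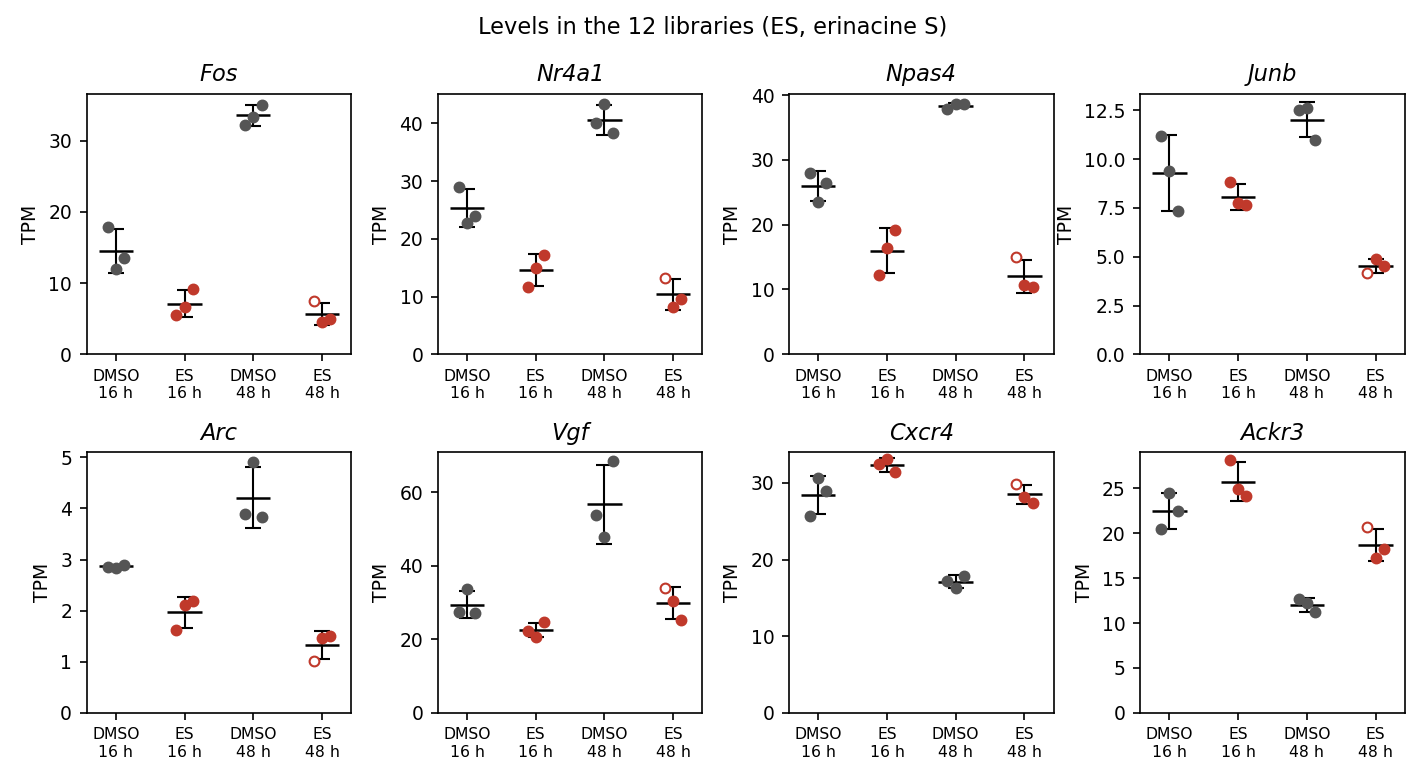
TPM of 8 genes in the 12 libraries (points), with group mean and SD (n = 3 per group), for DMSO and erinacine S (ES) at 16 h and 48 h. The open circle is erinacine S 48 h replicate 1. Fos in DMSO was at 12 to 17.9 TPM at 16 h and 32.2 to 35.1 TPM at 48 h, and Cxcr4 in DMSO at 25.7 to 30.7 and 16.3 to 17.9 TPM.

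The difference between the 2 effects was tested for each gene, and none passed (430 genes, 2.8%, had an unadjusted p under 0.05). With the replicate number as a block within each time, 1 gene passed, the antisense model Gm16172 (3.43, adjusted p = 0.000867). The smallest p-values were those of Junb, Anxa3, Fos, Crh and Spp1, with differences of -1.07, -1.44, -1.46, -1.59 and -2.08 (48 h minus 16 h) and an adjusted p of 0.693 for each. Across the 12 libraries, the genes whose log2 values were most like those of Fos were Nr4a1, Npas4, Crh, Mir670hg, a noncoding RNA gene, and Fosb, with Pearson's r of 0.981, 0.98, 0.953, 0.944 and 0.939 as a description over libraries that share the same 4 groups.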

How the data were processed

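RNA of primary cortical neurons was sequenced from strand-specific libraries, per the labels' protocols. The submitters' processing notes name bcl2fastq 2.20, Trimmomatic 0.36, FastQC, HISAT2, SAMtools, StringTie 2.1.3 and the build GRCm38.p5. Not given in the sources used here are their order, settings and annotation release. TPM per gene were deposited by the authors, with 0.0001 in place of 0. TPM keep no read depth, so the precision is known only from the spread between libraries.

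Groups and replicate numbers came from the sample titles. Log2(TPM + 1) was fitted with limma 3.58.1 in R 4.3.3 (eBayes with a trend), with 1 mean for each of 4 groups over the 12 libraries. The contrasts were erinacine S minus DMSO at 48 h, at 16 h and their difference. Two-sided p-values were adjusted (Benjamini-Hochberg) across 15349 genes with a mean of at least 1 TPM at 48 h and a threshold of 0.05. The fit was tested on simulated data. The gene lists, and the rule for named genes, were chosen with earlier results of these data known. The rule takes all genes that passed, up to 4 members of each list with the smallest p and some by role, the largest changes without erinacine S replicate 1, the 5 smallest p of the difference between times, cell type markers and the genes most unlike in replicate 1 or most like Fos. Lists are described by counts and medians, with no test of a list. Promoter windows were searched in Python 3.11.15. Other settings tried were the pseudocount, the filter, the scaling, the variance model, a replicate block and each library left out; the count at 16 h was run under them after the data were seen. Same-numbered libraries of the 2 groups deviated together at 16 h (r of 0.43, 0.157 and 0.499). At 48 h the outlying erinacine S replicate 1 shaped the deviations, so pairing there could not be judged. Some items are not reported here.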

Additional observations from a re-analysis of the deposited data

How the results depend on the processing

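Depth is unknown for TPM, and 3 libraries a group limit what could be detected. The 21 genes kept their direction in the settings run, except that Arc, Atf3, Spp1, Dusp5, C1qc and Crh lie below the filter of 5 TPM and have no value there. Against 21 genes called (3 higher, 18 lower), the count was 11 (9 lower) in a fit of only the 6 libraries of 48 h, 13 (11 lower) with the replicate number as a block over all libraries, 32 (28 lower) without the trend, and 1643 (702 higher, 941 lower) with a weight for each library, which gave erinacine S replicate 1 the smallest weight (0.191). Without a filter on low values 15 genes passed, 1 of them higher, and 10 of the 21 passed. Leaving out each library in turn gave 9 to 116 genes, 1 to 7 higher and 8 to 109 lower. Same-numbered libraries of 48 h correlated in their deviations at r of -0.019, 0.103 and -0.2, and those of 16 h at 0.43, 0.157 and 0.499. At 48 h this cannot decide whether libraries were paired. Erinacine S replicate 1 stood apart and so shaped the deviations of the other treated libraries from their group mean. A replicate block within each time gave 16 genes at 48 h and 0 at 16 h. The interaction called 0 genes except 1 with that block and 14 with library weights, and leaving out a library gave 0. It has no value in the fit of 48 h alone. At 16 h the count was 0 in all settings that give one except 2 genes with no filter (9530022L04Rik and D5Ertd605e).

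By gene, Arc, Anxa3, Ier2, Egr1, Atf3, Spp1, Dusp5, C1qc, Vgf, Ackr3, Tmem150c and Peg13 lost the call in the fit of 48 h alone (adjusted p 0.0542 to 0.21). Dtna, Atf3, Spp1, Dusp5, C1qc, Vgf, Ackr3, Tmem150c and Peg13 lost it with the replicate block (0.0672 to 0.0955) and with the block within each time (0.0522 to 0.158). With no filter, Dusp1, Dtna, Atf3, Spp1, Dusp5, C1qc, Vgf, Egr1, Ackr3, Tmem150c and Ier2 did (0.0653 to 0.119). A pseudocount of 0.1 ended the calls of Dtna, Spp1, C1qc, Egr1 and Crh (0.0532 to 0.0718), and 5 those of Dtna, Atf3, Spp1, C1qc and Ackr3 (0.0505 to 0.0824). Without the trend Dtna, Tmem150c and Peg13 were lost (0.0551 to 0.0796), and Peg13 with robust eBayes (0.0557). With pseudocounts of 0.1 and 5 the values of low genes moved by over 1.5 times at one or both, as for Arc (-1.60 and -0.54), Atf3 (-1.51 and -0.34), C1qc (-2.41 and -0.61), Spp1 (-2.59 and -0.91), Anxa3 (-2.16 and -1.03), Dusp5 (-1.07 and -0.44) and Crh (-4.06 and -0.78).

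Of the medians of 16 lists, 305 of 320 values moved by less than the spread between treated libraries. The immediate early factors moved from -0.66 to -0.36 with a pseudocount of 5, -0.60 and -0.70 with a mean TPM of at least 5 or of at least 1 over 12 libraries, -0.76 with weights and -0.77 to -0.60 with a library left out. With weights, the effectors stood at -0.27 and the late genes at -0.41, the latter at -0.41 to -0.11 with a library left out. The MAP kinase phosphatases stood at -0.44 with a pseudocount of 5. The microglia list stood at -1.97 and -0.58 with a pseudocount of 0.1 or 5 and at 0.03 with the filter of 5, which leaves few members. With a library left out, Creb1 ranged from -0.01 to 0.07, changing sign without erinacine S replicate 1. The cause of these shifts was not tested.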

Other observations

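The genes here were chosen after their values were seen. The symbol Rnf26 has 2 entries that overlap on the same strand of chromosome 9. The longer (44066327 to 44113500) had 28.5, 9.55 and 24.1 TPM with DMSO and was listed at 0, 18.5 and 0.225 with erinacine S, the most negative log2 fold change of all genes tested (-2.78, adjusted p = 0.537). The shorter (44095631 to 44113517) had 13.4, 37 and 17.7 TPM and 44.4, 24.1 and 45.6. Their sum was 41.8 to 46.5 TPM with DMSO and 42.6 to 45.8 with erinacine S.

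Gm16172, an antisense model on chromosome 17 (45663519 to 45666209), was the 1 gene tested that was listed at 0 in all 3 DMSO libraries of 48 h and above 0 in all 3 erinacine S libraries, at 7.67, 8.97 and 10.8 TPM (adjusted p = 0.206). No gene showed the reverse. At 16 h Gm16172 was listed at 0 in replicate 3 of both groups and stood at 7.08 to 8.83 TPM in the other 4 libraries.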
